A study of Mus musculus with 6 samples.

Results

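Integrins are the receptors by which cells hold on to the extracellular matrix, and focal adhesions are the protein assemblies that tie them to actin. The 32 genes described here encode 10 integrin alpha chains, 8 integrin beta chains and 14 proteins of the assembly on the inner side of the membrane. They were found by gene symbol, and all 32 have a row among the 30077 genes of the deposited table. RNA came from bEnd.3, an immortalised wild-type mouse brain endothelial line grown with serum. The 3 mitochondria libraries are from cells given mitochondria isolated from MLO-Y4, a mouse osteocyte-like line, in 100 µl of medium, and the 3 control libraries are from cells given the same volume of medium alone. All were collected after 24 h. No group received mitochondria of another source, so an effect of osteocyte mitochondria and one of any added mitochondria cannot be told apart. The labels do not state whether replicate libraries stem from different cultures, and the spread that p-values rest on may therefore be technical.

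An integrin is a pair of 1 alpha and 1 beta chain, and the pair sets the ligand. In endothelium, pairs with the beta-1 chain bind fibronectin, laminins and collagens, and the pair of Itgav and Itgb3 binds vitronectin and other ligands and is known for its role in vessel growth. Inside the cell, talin and kindlin bind the beta tail and switch the receptor on, vinculin strengthens the link to actin, the ILK, PINCH and parvin proteins form a scaffold, and focal adhesion kinase, Src, paxillin and p130Cas carry the signal.

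Libraries held 59651087 to 65576084 counts. Of 14 endothelial markers, 13 had at least 1 FPKM (a fragment level scaled by transcript length and library size, which can be compared between genes) in all 6 libraries, and Vwf had a mean of 0.425 FPKM. Their summed level was 1274 to 1280 FPKM in control and 1215 to 1285 FPKM in mitochondria libraries, and none was called changed. Flt1 (0.25 on the log2 scale, edgeR adjusted p = 0.0503), Esam (0.13, adjusted p = 0.0532) and Egfl7 (0.19, adjusted p = 0.0579) came close to a call as higher. Emcn alone of the tested ones was below 0 (−0.061). No osteocyte or osteoblast marker of the 9 in the table had at least 1 FPKM in all 6 libraries. Their summed level was 0.623 to 0.849 FPKM in control and 0.447 to 0.626 FPKM in mitochondria libraries, with Bglap at 0 in all 6. The summed level of 11 leukocyte and platelet markers was 37.9 to 40.4 FPKM in control and 51.0 to 58.5 FPKM in mitochondria libraries. Cd68, a lysosomal glycoprotein that rose from 38.0 ± 1.08 to 53.4 ± 4.19 FPKM (SD, n = 3; 0.55 on the log2 scale, SE 0.069, edgeR adjusted p = 0.00212, not called without the filter or with the 18S share as a covariate), was the only one of them with at least 1 FPKM in all 6 libraries, while Ptprc, Itgam and Itgax each had a mean below 0.01 FPKM. Reads of the 18S ribosomal RNA row took 1.58% to 3.20% of control and 3.93% to 7.10% of mitochondria libraries, so this share moved with the groups. A fit with this share as a covariate therefore cannot tell it apart from the treatment. Summed markers of mural cells and fibroblasts (4.29 to 6.73 against 2.76 to 9.77 FPKM) and of epithelium (3.49 to 4.12 against 2.84 to 5.05 FPKM) overlapped between the groups. The part of the Cd68 change in the integrin results was not tested.

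The line expressed only some of the integrin chains. Of the 18 chains, 9 had at least 1 FPKM in all 6 libraries, namely 5 alpha and 4 beta chains. A further 2 alpha chains lay around 1 FPKM, 3 chains had means of 0.1 to 1 FPKM and 4 had means below 0.1 FPKM. The beta side was dominated by Itgb1, the partner of most alpha chains (ENSMUSG00000025809, GRCm38 chromosome 8: 128685654 to 128733200). Its level was 398, 424 and 404 FPKM in control libraries and 363, 373 and 365 FPKM in mitochondria libraries. In the summed FPKM of the 8 beta chains its share was 91.6 ± 0.254% for control and 89.9 ± 0.278% for mitochondria (SD, n = 3), with no overlap.

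Itgb3, the beta chain of the vitronectin receptor, was at 18.3, 19.3 and 18.4 FPKM in control and at 20.8, 20.9 and 21.6 FPKM in mitochondria libraries. Itgb5, another partner of Itgav, was at 10.8, 10.9 and 10.9 FPKM in control and at 11.4, 10.3 and 10.3 FPKM in mitochondria libraries. Itgb4, which pairs with Itga6 alone and in epithelia anchors hemidesmosomes, was at 7.34, 6.88 and 8.60 FPKM in control and at 9.51, 9.29 and 8.59 FPKM in mitochondria libraries. The order Itgb1, Itgb3, Itgb5, Itgb4 was therefore the same in all 6 libraries, and the ranges of neighbouring chains did not meet.

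The other 4 beta chains were scarce. Itgb2 and Itgb7, which are leukocyte chains, and Itgb6 and Itgb8, which help release latent TGF-beta, had means of 0.0146 to 0.115 FPKM. Their counts were 0 to 57 per library for Itgb2, 0 to 18 for Itgb7, 4 to 19 for Itgb6 and 7 to 19 for Itgb8. If reads fall independently, a count of 0 for Itgb2 in control 1, or for Itgb7 in control 3, allows up to 3 counts. That is 0.0462 and 0.0464 CPM (counts scaled to the library total). Itgb2 had 47 and 24 counts in controls 2 and 3, so this bound may be too low.

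Among alpha chains Itga3, a laminin receptor chain, was highest, at 93.8, 94.1 and 91.2 FPKM in control and 92.2, 84.8 and 89.3 FPKM in mitochondria libraries. Itga5, the fibronectin receptor chain, followed at 53.8, 56.3 and 56.3 FPKM in control and 58.5, 54.4 and 54.4 FPKM in mitochondria libraries. Next came Itga6, another laminin receptor chain, at 37.0, 40.7 and 37.6 FPKM in control and 35.2, 37.1 and 39.0 FPKM in mitochondria libraries. In each of these chains the groups overlapped in FPKM, and the ranges of the chains did not meet.

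Itgav, the shared partner of Itgb3 and Itgb5, was at 26.6, 29.2 and 27.5 FPKM in control and 26.1, 27.4 and 25.9 FPKM in mitochondria libraries. Itga4, which with Itgb1 binds VCAM1 and fibronectin, was at 12.8, 14.1 and 13.1 FPKM in control and 11.2, 12.2 and 11.5 FPKM in mitochondria libraries. The collagen receptor chains Itga2 and Itga1 were at 0.952 to 1.30 and 0.980 to 1.04 FPKM, and their ranges overlapped. Below them were Itga9, a chain that binds tenascin C, with a mean of 0.576 FPKM, Itga7, the laminin receptor chain of muscle, with 0.180 FPKM, and Itga8 with 0.0201 FPKM.

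Of the summed FPKM of the 10 alpha chains, Itga3 made up 39.6% to 41.3% in control and 38.8% to 40.8% in mitochondria libraries. Itga5 made up 23.7% to 24.6% and 24.3% to 25.9%. The alpha chains summed to 0.518 ± 0.00331 of the beta chains under control conditions and to 0.545 ± 0.0155 with mitochondria (SD, n = 3). Of 8 further genes, the chains Itga2b, Itga10, Itga11, Itgae, Itgal, Itgam and Itgax and the integrin-like Itgbl1, none passed the filter for testing, and Itga2b had the highest mean at 0.255 FPKM.

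**Figure D1:**
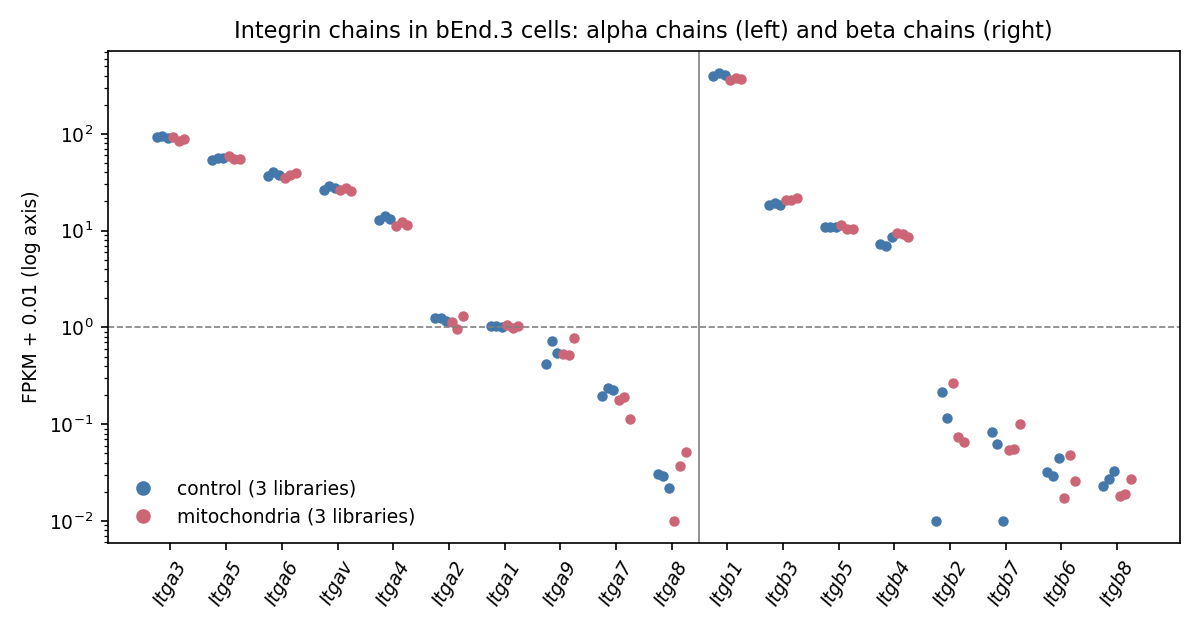
Level of the 18 integrin chains in each library, as FPKM + 0.01 on a log axis, alpha chains at the left and beta chains at the right, each ordered by mean level, with a dashed line at an FPKM of 1. Itgb1 stands far above all others at 363 to 424 FPKM, and 9 chains lie above the line in all 6 libraries.

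Of the 14 assembly proteins, 13 had at least 1 FPKM in all 6 libraries. Tln1, talin 1, was highest with a mean of 75.9 FPKM, and its relative Tln2 was the exception, at 0.621 to 0.718 FPKM. Bcar1, Parva, Tns3, Fermt2, Pxn, Vcl, Zyx, Lims1 and Src followed, with means over 6 libraries from 38.3 FPKM (Bcar1) to 20.7 FPKM (Src). Tns1 (15.9 FPKM), Ptk2 (15.5 FPKM) and Ilk (12.6 FPKM) were the lowest of the 13.

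The chains are scattered over the genome, with some near neighbours. Itga1 (chromosome 13: 114953096 to 115101964) and Itga2 (chromosome 13: 114833081 to 114932100), the collagen receptor chains with similar low levels, lie next to each other on the minus strand. Itga4, Itga6, Itga8, Itgav, Itgb6 and Src are all on chromosome 2, and Itga3, Itgb3, Itgb4 and Tns3 are on chromosome 11.

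RefSeq promoter windows of GRCm38.p6 were matched for 23 of the 32 genes, and the 250 bases before the start site were searched on both strands. These windows had a median GC content of 65.2%, against 52.4% over all 32851 windows. GGGCGG, the core of a GC box, was in 13 of the 23 (56.5%) and in 32.7% of all windows. The CArG box, to which serum response factor binds, was in 2 of the 23, Vcl and Fermt2 (8.70%), and in 1.47% of all windows. TGANTCA, the AP-1 site, was in 1 (Zyx, 4.35%) against 6.75% of all, GGAATG, which TEAD factors bind, in 2 (Itgb1 and Vcl, 8.70%) against 12.6%, and TGACNNNGC, the antioxidant response element, in 5 (21.7%) against 10.2%. The Zyx window is not shown, because its RefSeq start lies 198 bases inside the deposited gene. Some other starts lie deeper inside, at 105002 bases for Itga9, 5849 for Src and 526 for Itgb8. The matches of Itga9 to TGACNNNGC and of Src to GGGCGG are therefore not at the deposited gene start. A match is only a description of letters in the window. The window of Itgb1 is shown because this chain dominates the family, that of Tns1 because it was called higher, and that of Vcl because it holds a CArG box. Capitals mark the motif matches on either strand, and adjoining or overlapping matches run together. The RefSeq start of Tns1 lies 101 bases before the deposited gene. They lie at chr8:128685404-128685653 (plus strand), chr1:74124549-74124798 (minus strand) and chr14:20929148-20929397 (plus strand).
Itgb1: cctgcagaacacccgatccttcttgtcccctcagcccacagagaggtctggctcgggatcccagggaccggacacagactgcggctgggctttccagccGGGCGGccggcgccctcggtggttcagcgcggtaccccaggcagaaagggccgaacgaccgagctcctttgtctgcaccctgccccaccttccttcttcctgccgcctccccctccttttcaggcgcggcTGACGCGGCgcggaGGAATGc
Tns1: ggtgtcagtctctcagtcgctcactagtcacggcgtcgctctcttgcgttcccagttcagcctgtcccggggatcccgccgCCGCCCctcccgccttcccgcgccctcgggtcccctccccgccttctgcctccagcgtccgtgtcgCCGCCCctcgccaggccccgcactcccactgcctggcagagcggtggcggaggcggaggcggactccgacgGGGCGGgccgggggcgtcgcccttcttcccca
Vcl: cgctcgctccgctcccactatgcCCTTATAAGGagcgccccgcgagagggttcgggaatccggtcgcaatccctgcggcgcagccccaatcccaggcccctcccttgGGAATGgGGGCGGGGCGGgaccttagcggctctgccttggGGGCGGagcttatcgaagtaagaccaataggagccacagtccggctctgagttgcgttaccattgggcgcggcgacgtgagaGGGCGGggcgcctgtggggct

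When cells given mitochondria were compared with controls, Zyx fell and Itgb3 and Tns1 rose, and no alpha chain passed in edgeR. Calls are those of edgeR's quasi-likelihood test with an adjusted p (Benjamini-Hochberg) under 0.05 among 11255 genes, each at 1 FPKM or more in 3 or more libraries. Of the 32 genes 24 passed that filter, 22 of them with all 3 libraries of both groups, and 3 were called (12.5%), where 2.09% of all tested genes were. By direction, 2 were higher (0.986% of all tested genes were) and 1 was lower (1.10% of all). Over all 11255 tested genes, 1812 had an unadjusted p under 0.05 in edgeR and 597 were called by DESeq2, against 11 and 7 of the 24. The median log2 fold change of the 24 was −0.024, against 0.0011 for all tested genes, with 9 above 0 and 15 below. Each log2 fold change sets mitochondria against control and has its standard error (SE), and levels in the following are CPM with TMM scaling. In bulk RNA, fewer cells with a transcript and less of it per cell cannot be told apart.

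**Figure D2:**
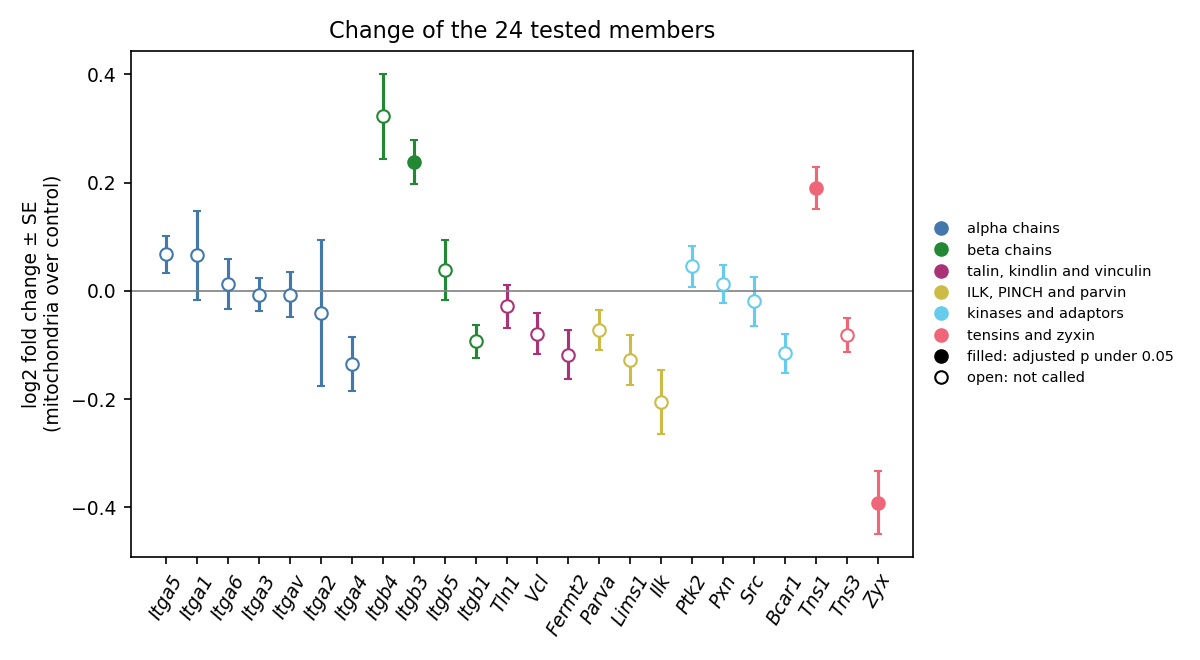
Log2 fold change (mitochondria over control) with its SE in edgeR for the 24 tested genes, coloured by role, filled where the adjusted p was under 0.05. Zyx at −0.39, Itgb3 at 0.24 and Tns1 at 0.19 are the filled points, and Itgb4 at 0.32 is open.

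Of the beta chains, Itgb3 (ENSMUSG00000020689, chromosome 11: 104608000 to 104670476) was the one called. It was at 122.1, 124.6 and 122.0 CPM in control libraries and at 139, 147 and 149 CPM in mitochondria libraries. The groups did not overlap, and the gap between them was wider than the spread within either. The log2 fold change was 0.24 (SE 0.040, adjusted p = 0.0123 in edgeR), a rise of 17.9%. The call was lost without control 3 (adjusted p = 0.0716) or mitochondria 3 (adjusted p = 0.0612), in limma on deposited FPKM (adjusted p = 0.119), without the filter (adjusted p = 0.0788), with TPM (0.078, adjusted p = 0.388) and with the 18S share as a covariate (0.22, adjusted p = 0.762), while over all 16 other settings it stayed above 0, with adjusted p of 6.78e-06 to 0.762.

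Itgb4 had the largest log2 fold change of the 24 above 0, but it did not pass. It was at 58.1, 52.9 and 67.9 CPM in control and at 75.9, 77.5 and 70.4 CPM in mitochondria libraries. Control 3 lay close to mitochondria 3, and on deposited FPKM these libraries crossed. The log2 fold change was 0.32 (SE 0.078, adjusted p = 0.0612 in edgeR). It passed in DESeq2 (adjusted p = 0.00232), with the replicate number as a block (adjusted p = 0.0464) and without control 3 (0.43, adjusted p = 0.0196), and was 0.16 with the 18S share as a covariate and with TPM; adjusted p ranged from 0.00232 to 0.867.

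Itgb1 was at 1833, 1896 and 1855 CPM in control and at 1686, 1812 and 1737 CPM in mitochondria libraries. Mitochondria 2 came close to control 1, and the groups did not overlap. Its log2 fold change was −0.093 (SE 0.031, adjusted p = 0.164 in edgeR), which did not pass. It passed in DESeq2 (adjusted p = 0.0440), with scaling by library totals (−0.14, adjusted p = 0.0394) and with the replicate block (adjusted p = 0.0330). With library totals the median of all tested genes was −0.046. The adjusted p of Itgb1 ranged from 0.0330 to 0.790. Itgb5 had a log2 fold change of 0.038 (SE 0.056), with overlapping groups at 42.4 to 43.4 and 42.9 to 46.1 CPM.

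A ratio of chains within a library does not depend on how libraries are scaled. The ratio of Itgb3 to Itgb1 in FPKM was 0.0460, 0.0455 and 0.0455 in control and 0.0572, 0.0560 and 0.0591 in mitochondria libraries. That of Itgb3 to its partner Itgav was 0.690, 0.660 and 0.668 in control and 0.795, 0.764 and 0.834 in mitochondria libraries. The ratio of Itgb3 to Itgb5, another partner of Itgav, was 1.70, 1.77 and 1.69 in control and 1.82, 2.04 and 2.09 in mitochondria libraries. All 3 ratios were higher in every mitochondria library than in any control, though for Itgb3 over Itgb5 the nearest values were 1.77 and 1.82. Such ratios do not tell which of the chains stayed level. Itgb5 over Itgav overlapped, at 0.373 to 0.405 for control and 0.376 to 0.437 for mitochondria. Itgb4 over Itga6 overlapped as well, at 0.169 to 0.229 in control and 0.221 to 0.270 in mitochondria libraries. Itga3 over Itgb1 also overlapped, at 0.222 to 0.235 in control and 0.227 to 0.254 in mitochondria libraries. Without overlap were Itga5 over Itgb1 (0.133 to 0.139 and 0.146 to 0.161) and Itgb4 over Itgb1 (0.0162 to 0.0213 and 0.0236 to 0.0262). These ratios were chosen after the values were seen and carry no test.

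**Figure D3:**
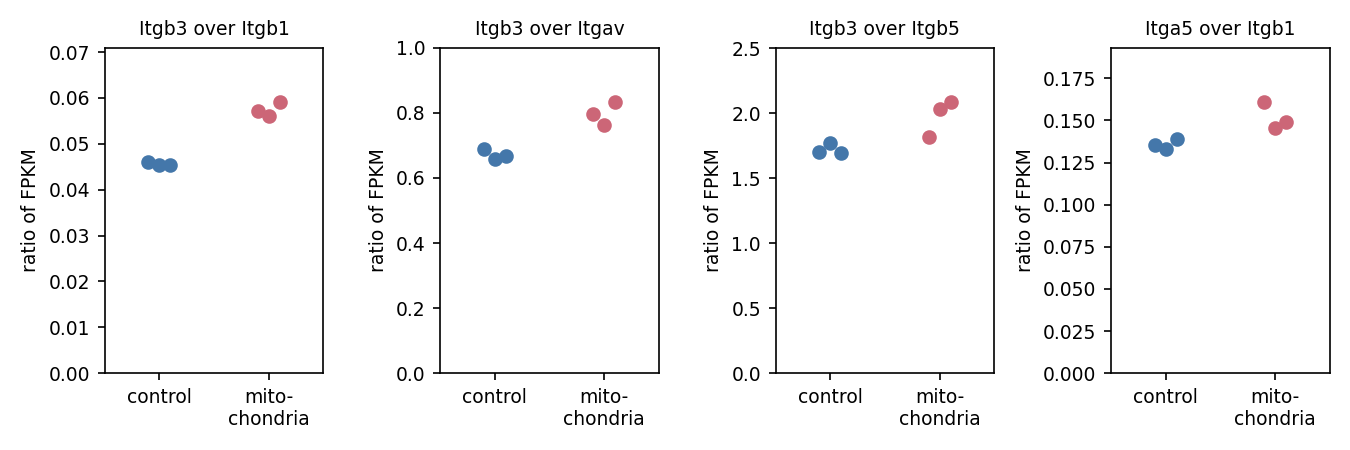
Ratio of FPKM between integrin chains in each library, with control in blue and mitochondria in red (3 libraries each, axes from 0). Itgb3 over Itgb1 is 0.0455 to 0.0460 in control and 0.0560 to 0.0591 in mitochondria libraries, and the groups do not overlap in any of the 4 ratios drawn. The ratios with overlap given in the text are not drawn.

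None of the 7 tested alpha chains passed in edgeR, DESeq2 or limma, and 1 had an unadjusted p under 0.05. That was Itga4, at 202, 216 and 206 CPM in control and 177, 203 and 188 CPM in mitochondria libraries (log2 fold change −0.14, SE 0.050, edgeR adjusted p = 0.210). Mitochondria 2 reached into the control range. Itga5 was at 299, 305 and 312 CPM in control and at 328, 319 and 313 CPM in mitochondria libraries (0.067, SE 0.034). Itga1 was at 21.4, 20.9 and 21.0 CPM in control and at 22.0, 21.7 and 22.5 CPM in mitochondria libraries (0.065, SE 0.083). For both chains the groups were apart by a margin smaller than the spread within a group, and they overlapped on deposited FPKM, while with TPM both fold changes were below 0. Itga3, Itga6, Itgav and Itga2 had log2 fold changes of −0.041 to 0.013, each smaller than its SE.

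In talin, kindlin and vinculin, which activate and anchor the receptor, none of 3 tested genes passed in edgeR, DESeq2 or limma. Fermt2, kindlin 2, had the lowest p of them and the single unadjusted p under 0.05, at 156, 168 and 167 CPM in control and 145, 158 and 149 CPM in mitochondria libraries (log2 fold change −0.12, SE 0.045, edgeR adjusted p = 0.226). Vcl, vinculin, was at 231 to 242 CPM in control and 219 to 232 CPM in mitochondria libraries (−0.080, SE 0.038). Tln1 was at 837 to 891 and 793 to 865 CPM (−0.029, SE 0.039). The groups overlapped in all 3 genes. Tln2, below the filter, was at 13.9 to 14.7 CPM in control and 13.5 to 13.8 CPM in mitochondria libraries.

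The scaffold of ILK, PINCH and parvin had 3 values below 0 and none that passed in edgeR or in limma on deposited FPKM, while 1 passed in DESeq2 and 2 had an unadjusted p under 0.05. Ilk, the integrin-linked pseudokinase (chromosome 7: 105736592 to 105742925), was at 43.9, 41.0 and 41.6 CPM in control and at 36.1, 37.1 and 36.4 CPM in mitochondria libraries. The groups lay well apart. Its log2 fold change was −0.21 (SE 0.060, adjusted p = 0.115 in edgeR). It passed in DESeq2 (adjusted p = 0.0486), with scaling by library totals (adjusted p = 0.0451) and in limma with TPM (−0.36, adjusted p = 0.0342). The median of all tested genes was itself below 0 there, at −0.046 with library totals and −0.15 with TPM. The adjusted p of Ilk ranged from 0.0342 to 0.762 in all settings. Lims1, PINCH1, was at 125.1, 131 and 134 CPM in control and 117, 125.0 and 114 CPM in mitochondria libraries (−0.13, SE 0.046, adjusted p = 0.202 in edgeR). Control 1 and mitochondria 2 all but met. Parva, alpha-parvin, was at 399 to 425 and 379 to 401 CPM, with overlap (−0.073, SE 0.037).

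Among kinases and adaptors, none of 4 passed in edgeR or limma, 1 passed in DESeq2, and 1 had an unadjusted p under 0.05. That gene was Bcar1, which encodes the stretch-sensitive adaptor p130Cas, at 206, 204 and 208 CPM in control and 195, 186 and 189 CPM in mitochondria libraries. Its groups did not overlap. The log2 fold change was −0.12 (SE 0.036), with an adjusted p of 0.139 in edgeR, 0.0374 in DESeq2 and 0.0374 to 0.859 over all alternatives. Ptk2, focal adhesion kinase, had a log2 fold change of 0.045 (SE 0.038), the adaptor paxillin gene Pxn 0.013 (SE 0.034) and the kinase Src −0.019 (SE 0.045). In these 3 genes the groups overlapped, and the sign of each turned under some settings.

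Zyxin and the tensins held the other called genes. Zyx encodes a LIM protein that gathers at tensed stress fibres and brings in actin regulators (ENSMUSG00000029860, chromosome 6: 42349630 to 42360213). It was at 152, 154 and 141 CPM in control and at 124, 106 and 112 CPM in mitochondria libraries. Every mitochondria library was well below the lowest control. Its log2 fold change was −0.39 (SE 0.058, adjusted p = 0.00587 in edgeR), the largest in size among the 24. It fell by 23.8%. The call held in each of the 6 fits without a library (adjusted p of 0.00152 to 0.0340) and was lost in limma on deposited FPKM (−0.43, adjusted p = 0.0655), without the filter (−0.39, adjusted p = 0.110) and with the 18S share as a covariate (−0.23, adjusted p = 0.762), out of a range of 3.15e-09 to 0.762.

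Tns1 encodes tensin 1, which links beta tails to actin in the long fibrillar adhesions along fibronectin (chromosome 1: 73910231 to 74124447). It was at 277.5, 277 and 286 CPM in control and at 308, 315 and 335 CPM in mitochondria libraries. The groups did not overlap, and mitochondria 3 was highest. Its log2 fold change was 0.19 (SE 0.039, adjusted p = 0.0285 in edgeR), a rise of 14.0%. The call was lost without control 1 (adjusted p = 0.0928), control 2 (adjusted p = 0.111), control 3 (adjusted p = 0.0899) or mitochondria 3 (adjusted p = 0.121). It was also lost with scaling by library totals (0.14, adjusted p = 0.0845), in limma on deposited FPKM (0.12, adjusted p = 0.227), without the filter (adjusted p = 0.199), with TPM (0.030, adjusted p = 0.760) and with the 18S share as a covariate (0.15, adjusted p = 0.790). Its relative Tns3 was at 379, 388 and 392 CPM in control and 360, 364 and 370 CPM in mitochondria libraries, with no overlap (−0.082, SE 0.032, adjusted p = 0.237 in edgeR).

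**Figure D4:**
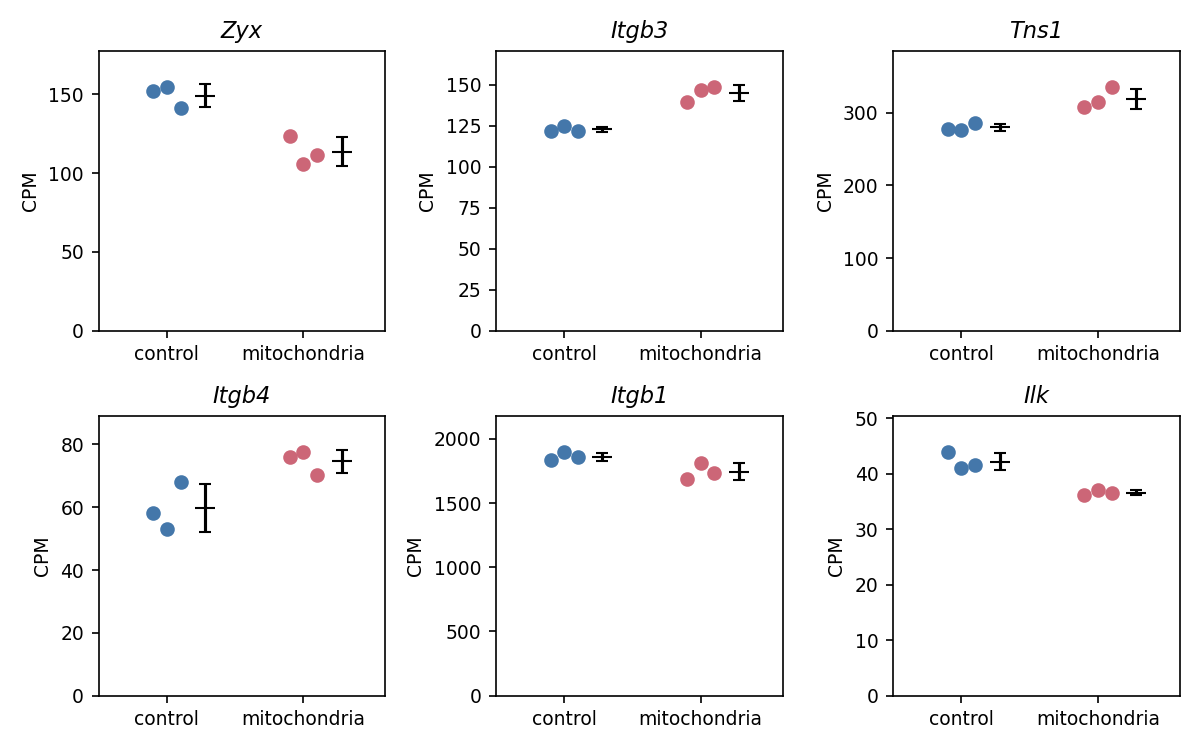
CPM with TMM scaling in each library for Zyx, Itgb3, Tns1, Itgb4, Itgb1 and Ilk, with points for libraries, a bar for the mean, error bars for the SD over 3 libraries, and axes from 0. The groups do not overlap in any of the 6 genes, and the distance is narrowest relative to the level in Itgb1 and Itgb4.

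In all, 11 of the 24 genes (45.8%) had groups that did not overlap in CPM, where 21.1% of all tested genes did. They were 5 higher genes (Itga1, Itga5, Itgb3, Itgb4 and Tns1), against 10.1% of all, and 6 lower genes (Itgb1, Zyx, Ilk, Lims1, Bcar1 and Tns3), against 11.0% of all. On deposited FPKM, 2 were higher (8.33%, against 4.14% of all tested genes) and 10 lower (41.7%, against 21.4% of all). The 2 higher genes were Itgb3 and Tns1 there too, and the lower ones gained Itga4, Vcl, Parva and Fermt2. The scales differ in their centre as well: the median of all genes was 0.0011 with TMM, −0.051 on deposited FPKM and −0.15 with TPM, and the median of the 24 was −0.024, −0.072 and −0.17. The share of 18S reads did not overlap between the groups, as given above, so the covariate fit cannot separate it from the treatment. Its part in these results was not tested.

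Other genes of the focal adhesion were read from lists in the same fit. Of 174 tested genes that the table's KEGG or GO terms place at focal adhesions, the 32 left out, 2 rose and 7 fell, where 0.986% of all tested genes were called higher and 1.10% lower. The median log2 fold change was −0.024. The lowest p-values were those of the matrix ligands Thbs1 (−0.44, SE 0.024), Tnc (−0.67, SE 0.036) and Fn1 (−0.18, SE 0.025), and of Actg1, cytoplasmic gamma actin (−0.19, SE 0.027). Fn1 and Actg1 were called in each of the 6 fits without a library. Both calls were lost in limma on deposited FPKM (adjusted p = 0.061 for each), without the filter (adjusted p = 0.113 and 0.132) and with the 18S share as a covariate (adjusted p = 0.498 and 0.533), while Thbs1 and Tnc passed in all 16 other settings. The 2 that rose, named after their values were seen, were the kinase gene Mapk3 (0.22, SE 0.042) and Rapgef1 (0.19, SE 0.038), which encodes an activator of Rap1. Without a library, Mapk3 was not called without control 2, control 3 or mitochondria 1, and Rapgef1 was called only without mitochondria 2. Neither passed in limma, with library totals, without the filter or with the covariate.

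DESeq2 called 6 of 25 actin linkers and LIM proteins, against 597 of all 11255 tested genes. In edgeR 2 of the 25 fell and none rose, where 1.10% of all tested genes were called lower and 0.986% higher, with a median of −0.033. They were Sorbs2, an adaptor of the vinexin family (231 ± 9.33 to 192 ± 12.0 CPM, log2 fold change −0.26, SE 0.049), and Flna, filamin A, which crosslinks actin and binds beta tails (1974 ± 32.2 to 1776 ± 54.9 CPM, −0.15, SE 0.029; SD, n = 3). Both are among the 7 lower genes above. Both calls were lost without control 2, control 3 or mitochondria 3, in limma on deposited FPKM, without the filter and with the 18S covariate. None of 13 talin, kindlin and scaffold relatives passed in edgeR (4 had an unadjusted p under 0.05, 1 passed in DESeq2 and 0 in limma on deposited FPKM), with a median of 0.076. Nor did any of 24 kinase and adaptor genes (2 with an unadjusted p under 0.05, 1 in DESeq2 and 0 in limma), with a median of −0.0099. Over all 11255 tested genes, 1812 had an unadjusted p under 0.05 in edgeR, 597 passed in DESeq2 and 39 in limma on log2(FPKM + 1).

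Of 27 membrane partners and trafficking genes, 4 passed in DESeq2, against 597 of all 11255 tested genes. In edgeR Slc3a2 alone passed, where 0.986% of all tested genes were called higher and 1.10% lower. It encodes the CD98 heavy chain, which binds beta tails and also carries amino acid transporters, and was at 422 ± 12.1 CPM for control and 488 ± 21.6 CPM for mitochondria (SD, n = 3). This rise of 0.21 on the log2 scale (SE 0.039) had an adjusted p of 0.0190 in edgeR, a call lost without control 2 or control 3, in limma, with library totals, without the filter and with the 18S covariate. Of 24 integrin ligands, 7 fell and none rose, where 1.10% of all tested genes were called lower and 0.986% higher, and the median was −0.031. Beside Thbs1, Tnc and Fn1 these include Ccn1 (−0.41, SE 0.034) and Ccn2 (−0.33, SE 0.030), matricellular ligands of Itgav pairs, whose calls were lost only with the 18S covariate (adjusted p = 0.166 and 0.139). The remaining ones were Tgfb2 (−0.58, SE 0.073) and Lamb1 (−0.22, SE 0.035), called in 15 and 13 of the 16 other settings. Thbs1, Tnc, Fn1 and Lamb1 are in both lists. The ligand list was drawn up with earlier results of these data known, so its count beside the share of all genes is no test.

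**Figure D5:**
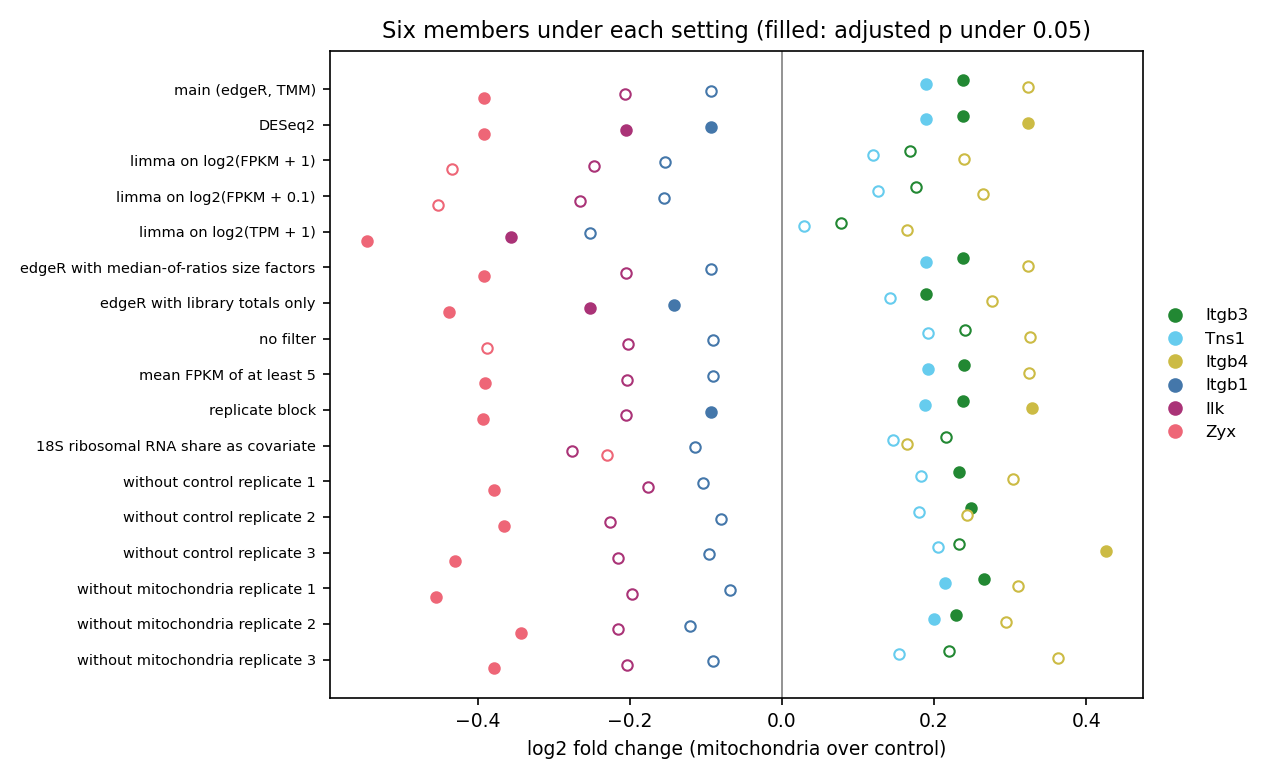
Log2 fold change of Itgb3, Tns1, Itgb4, Itgb1, Ilk and Zyx as reported and under each of 16 other settings, filled where the adjusted p was under 0.05. No point crosses 0. The lowest values of Itgb3 and Tns1 are those with TPM, at 0.078 and 0.030, and the value of Itgb1 nearest 0 is −0.069, without mitochondria 1.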

How the data were processed

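The authors deposited a table that holds a count and an FPKM value per gene and library. The column headers call these values counts and do not say whether they are raw, and library totals differ. Deposited FPKM values were computed by the authors. Per the submitters' processing notes, the tools include HISAT2 2.2.1 and StringTie 2.1.6, with trimming software cutadapt 1.9, and the build is GRCm38. Which tool counted, and whether strand was used, is not given in the sources used here. Groups follow the treatment label.

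Counts of the 11255 genes that reached 1 FPKM in 3 or more libraries were tested with edgeR 4.0.16 (R 4.3.3; TMM, glmQLFit and glmQLFTest, group as the only term, two-sided, Benjamini-Hochberg adjustment), checked on simulated counts. The SE was taken from the log2 fold change and its F statistic, as |log2 fold change|/√F. DESeq2 1.42.0 and limma 3.58.1 were alternatives. TPM is FPKM rescaled to a fixed sum. Libraries of a group differed by 15.1 to 83.1 in mean chi-square per gene and were kept apart.

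The genes, lists, tests and naming rule were chosen with earlier results of these data known. Named with library values were called genes, chains with a mean of at least 5 FPKM, genes without overlap and the lowest p of each role. No gene list was tested as a set.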

Additional observations from a re-analysis of the deposited data

How the results depend on the processing

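The number of called genes, 235 of all tested and 3 of the 32, moved with the method. DESeq2 called 597 and 7, limma on log2(FPKM + 1) 39 and 0, limma on log2(FPKM + 0.1) 36 and 0, library totals 353 genes, no filter 22 and 0, and the 18S share as a covariate 5 and 0. Leaving out 1 library gave 68 to 233 genes and 1 to 3 of the 32; Zyx, Itgb3 and Tns1 were called without mitochondria 1 or 2, Zyx and Itgb3 without control 1 or 2, Zyx and Itgb4 without control 3, and Zyx alone without mitochondria 3. With the replicate number as a block, 394 genes and 5 of the 32 were called. The numbers were not taken as pairs: deviations of same-numbered libraries correlated at 0.07, 0.07 and 0.03. Controls 1 and 2 correlated best with their own number, for control 2 at 0.066 against 0.064 with mitochondria 3. Control 3 correlated best with mitochondria 1. Genes that rose made up 47.2% of calls as reported, 17.3% with library totals, 17.9% and 16.7% in limma with 1 and 0.1 added to FPKM, 27.3% without the filter, 40% with the covariate and 6.10% with TPM. The number of chains at 1 FPKM or more in every library was 9 in FPKM, 12 in TPM and 9 to 11 without a library, 11 being without mitochondria 2.

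Of the 24 genes, 13 kept their sign in all settings run. The sign turned with TPM for Itga1 (−0.073), Itga5 (−0.091), Itga6 (−0.146), Itgb5 (−0.12), Pxn (−0.14) and Ptk2 (−0.11). With library totals it turned for Itga6 (−0.036), Itgb5 (−0.0083), Pxn (−0.034) and Ptk2 (−0.0022). In limma on FPKM with 1 or 0.1 added the values were −0.048 and −0.050 for Itga6, −0.021 and −0.023 for Itgb5, −0.046 and −0.048 for Pxn, and −0.015 and −0.016 for Ptk2. With the 18S share as a covariate they were 0.0042 for Itga3, −0.0051 for Itga6, 0.00025 for Tln1 and −0.030 for Pxn. Without a library, ranges across 0 were −0.16 to 0.054 (Itga2), −0.018 to 0.011 (Itga3), −0.025 to 0.065 (Itga6), −0.048 to 0.019 (Itgav), −0.0051 to 0.030 (Pxn), −0.050 to 0.0088 (Src) and −0.051 to 0.011 (Tln1). FPKM computed anew from counts was not run, since the table gives no gene length. The median of all tested genes was −0.150 with TPM, −0.046 with library totals, and −0.051 and −0.059 in limma with 1 and 0.1 added. Each value listed above for these settings lay above the median of its setting. The cause of these shifts was not tested. Depth limits the chains with under 60 counts per library, for which no change could be read.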
